A study of Brassica rapa subsp. pekinensis with 2 samples.

Results

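The microRNAs (miRNAs) described here are miR394 and miR396 of Chinese cabbage (Brassica rapa subsp. pekinensis). They were taken from the table of expressed miRNAs as every record whose name carries the number of either family after miR or MIR, whatever the species prefix, arm or edit suffix. This gave 16 of 1359 records and 14 of 1220 names, which stand for 13 of 1152 distinct sequences. Each distinct sequence was counted once, which left 5 sequences of miR394 and 8 of miR396. The rule used names and no read value, but the members were chosen with earlier results of these data known. The study sequenced small RNA of the doubled haploid line ‘FT’, and 2 libraries were analysed here, 1 for each group, whereas the labels' extraction notes speak of a larger number of small RNA libraries. ‘Ant’ held anthers pooled over several developmental stages, and ‘Mix’ held the roots, stems and leaves of whole seedlings at 4 true leaves. The labels give vernalization of the seeds at 4 °C for 20 days for both groups, whereas the study's methods state it only for the plants that gave ‘Ant’. Each library pools organs or stages, so a value cannot be assigned to 1 organ of ‘Mix’ or 1 stage of ‘Ant’. The plant age also differs between the groups and cannot be told apart from the tissue. With 1 library per group there is no replicate check of any difference below. All intervals are 95% intervals for counting error only, and reads copied by PCR are not independent molecules.

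A plant miRNA is cut by a Dicer-like enzyme out of a hairpin precursor as a duplex of a 5p and a 3p strand. The strand that is loaded into an ARGONAUTE protein guides it to messenger RNAs of matching sequence, and the other is mostly degraded. The 5p strand is the guide in both families. In Arabidopsis, miR396 represses GROWTH-REGULATING FACTOR (GRF) genes, which encode transcription factors that act with GRF-INTERACTING FACTOR coactivators to keep cells of leaves and floral organs dividing. In Arabidopsis, miR394 represses LEAF CURLING RESPONSIVENESS (LCR), which encodes an F-box protein, and acts in leaf shape and in the stem cells of the shoot tip. The messenger RNAs of GRF and LCR genes were not analysed here, and neither were their target sites.

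The mature sequences are shown because their ends decide how the records can be told apart. They are written 5′ to 3′ with T for U, and capitals mark the seed (bases 2 to 8). In the names, L and R give bases fewer (-) or more (+) than the known miRNA at its left and right end, ss marks a substitution, and p3 marks an arm that was named from the reads. The 5 sequences of miR394 were 20 or 22 nt long.
bna-miR394a: tTGGCATTctgtccacctcc
ppe-miR394a_L+2: aATTGGCAttctgtccacctcc
ath-miR394b-3p_R+1: aGGTGGGCatactgccaataga
bna-MIR394b-p3: aGGTGGGCatactgccaacaga
aly-MIR394b-p3: gATCTGTTagggtttctttg
The 8 sequences of miR396 were 21 or 22 nt long.
bra-miR396-5p: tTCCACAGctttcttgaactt
ath-miR396a-5p: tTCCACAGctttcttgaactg
csi-miR396a-5p_R+1_1ss20TA: tTCCACAGctttcttgaacagt
bra-miR396-3p: gCTCAAGAaagctgtgggaaa
ath-miR396a-3p: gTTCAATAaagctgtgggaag
aly-miR396b-3p_L-1R+1: cTCAAGAAagctgtgggaaat
cca-miR396a-3p: gTTCAAGAaagctgtgggaaa
csi-miR396a-3p_L-1R+2_1ss17GA: tTCAAGAAagctgtgaaaaatt
The 3 forms of the miR396 guide shared the seed TCCACAG, which no sequence of another family in the table had. The main miR394 guide had the seed TGGCATT, also found in no other sequence. Both abundant miR396 guides began with T and differed at their last base only, as T21G from bra-miR396-5p to ath-miR396a-5p (positions are counted from 1 at the 5′ end). Their 3p partners differed at 3 positions, as C2T, G7T and A21G from bra-miR396-3p to ath-miR396a-3p, so their seeds differed too. The sequence ppe-miR394a_L+2 was the miR394 guide with AA before it, where the 3 precursors have CT, and it had no genome position.

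The records named 7 distinct precursor positions, and 3 hairpins are shown. These are both MIR396 hairpins whose listed strands carried nearly all miR396 reads, and 1 MIR394 hairpin that held the guide and ath-miR394b-3p_R+1. Positions are those of the authors' table, and the genome build behind them is not given in the sources used here. Capitals mark the 5p and then the 3p miRNA.
MIR396 hairpin at A08:8216807-8216968, minus strand: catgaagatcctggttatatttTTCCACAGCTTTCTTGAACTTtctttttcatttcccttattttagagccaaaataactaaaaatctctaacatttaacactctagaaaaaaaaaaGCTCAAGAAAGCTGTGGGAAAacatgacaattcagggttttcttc
MIR396 hairpin at A09:5580107-5580262, plus strand: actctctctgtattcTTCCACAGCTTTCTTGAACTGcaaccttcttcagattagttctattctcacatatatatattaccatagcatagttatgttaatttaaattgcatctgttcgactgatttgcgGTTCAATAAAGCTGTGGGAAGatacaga
MIR394 hairpin at A07:27071216-27071335, plus strand: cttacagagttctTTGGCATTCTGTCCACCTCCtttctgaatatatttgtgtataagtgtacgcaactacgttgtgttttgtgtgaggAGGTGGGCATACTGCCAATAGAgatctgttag
The A08 hairpin held bra-miR396-5p at its bases 23 to 43 and bra-miR396-3p at its bases 118 to 138. The A09 hairpin held ath-miR396a-5p at its bases 16 to 36 and ath-miR396a-3p at its bases 129 to 149. In the folds deposited with the table, 20 of 21 bases of each guide were paired, the whole seed among them, as were 20 of 21 bases of bra-miR396-3p and 18 of 21 of ath-miR396a-3p. The folding energies of the A08 and A09 hairpins were -53.9 and -53 kcal/mol, and their GC contents were 31.5 and 34.6%. A second minus-strand record at A08:8216904-8217065 held the same 162 bases at a start 97 nt further on. The windows of the 2 records overlap, and the sequence does not repeat itself at that offset, so both positions cannot be right. The second record is listed for ath-miR396a-5p, but its letters are those of bra-miR396-5p. The sequence ath-miR396a-5p was thus found letter for letter only in the A09 hairpin. In RefSeq's annotation (CAAS_Brap_v3.01), 78 of 88 miRNA genes had the start and end of a precursor in the table. By that match the A08 hairpin overlapped the gene MIR396 and the long noncoding RNA LOC117127103, and the A09 hairpin overlapped no annotated gene.

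The miR394 guide was found in 3 hairpins, at A07:27071216-27071335 (plus strand), A02:13607130-13607285 (plus strand) and A07:20750807-20750918 (minus strand). Its reads therefore cannot be split among these loci. In each fold 17 of its 20 bases were paired, and 5 of the 7 in its seed. The 3p strand at the minus-strand A07 locus differed from that of the other loci as T19C, from ath-miR394b-3p_R+1 to bna-MIR394b-p3. By the same RefSeq match the A02 hairpin overlapped the protein-coding gene LOC103853002 and the long noncoding RNA LOC117132194. The minus-strand A07 hairpin overlapped the long noncoding RNA LOC103830624, and the plus-strand A07 hairpin overlapped no gene. Of the 13 sequences, 3 had no genome position, and 7 of the other 10 stood letter for letter in a precursor of their own record. These 7 held 99.8% of the members' reads in ‘Ant’ and 99.8% in ‘Mix’. Of all 1059 sequences with a position, 742 (70.1%) stood so, a share close to that of the members.

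The table held 1346716 reads in ‘Ant’ against 1393755 in ‘Mix’ over distinct sequences, and the authors' normalization multiplied them by 0.984 in ‘Ant’ and 1.016 in ‘Mix’. Reads below 3 in a library were set to 3 before ‘Ant’ was divided by ‘Mix’. That floor corresponds to 0.000223% of the reads in ‘Ant’ and 0.000215% in ‘Mix’. Differences are given as log2 of the normalized reads of ‘Ant’ over ‘Mix’. Over 2-fold means a log2 value above 1 or below -1. The tissue labels could not be checked against marker genes here, since the table holds miRNAs only.

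To ask how these regulators differ between anthers and vegetative organs, the reads of each sequence were compared. The guide of miR394 and both strands of the A09 miR396 hairpin were over 4-fold lower in ‘Ant’, whereas the guide of the A08 miR396 hairpin was about 2-fold higher. Of the 13 sequences, 2 were higher in ‘Ant’ by over 2-fold, against a background of 29.6% of all 1152 sequences. Another 5 were lower by over 2-fold, against a background of 22.1%, and 6 lay within 2-fold. The median log2 value was -0.53 over the 13 sequences and -0.01 over all 1152. These counts lean on thin data, because 8 of the 13 sequences had at most 38 reads in either library. The other 5 had at least 100 reads in a library and held 99.7% of the members' reads in ‘Ant’ and 99.8% in ‘Mix’. Among these 5, 1 was higher, 3 were lower and 1 lay within 2-fold. No share over all sequences was taken at this read minimum, so this count has no background.

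**Figure D1:**
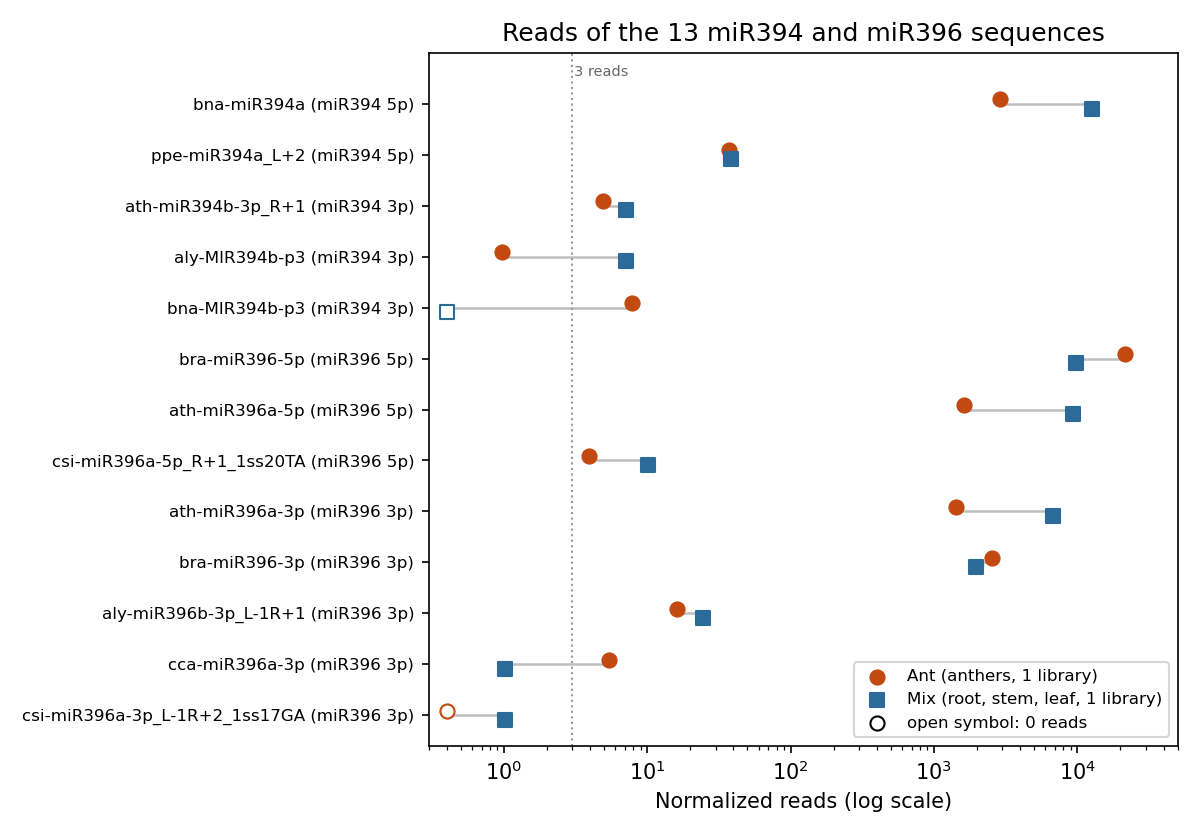
Normalized reads (log scale) of each of the 13 sequences in the 1 ‘Ant’ library (circles) and the 1 ‘Mix’ library (squares), with open symbols for 0 reads and a dotted line at 3. The sequences bna-miR394a, ath-miR396a-5p and ath-miR396a-3p lie clearly further left in ‘Ant’, bra-miR396-5p and, less so, bra-miR396-3p lie further right, and the remaining 8 have at most 38 reads.

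The miR394 guide, bna-miR394a (also listed as aly-miR394a-5p), had 2916 ‘Ant’ reads against 12376 ‘Mix’ reads, which is 2869.9 normalized ‘Ant’ reads and 12574 normalized ‘Mix’ reads. It was 4.38-fold higher in ‘Mix’, a log2 value of -2.13 (interval -2.19 to -2.07). It ranked 51 among all sequences in ‘Ant’ and 20 in ‘Mix’. In pooled tissue, fewer cells that hold an RNA and less of it per cell cannot be told apart, which applies to every difference given here. The longer form ppe-miR394a_L+2 had 38 reads in ‘Ant’ against 38 in ‘Mix’ (log2 -0.05, interval -0.73 to 0.64). It made up 1.29% (Wilson interval 0.939 to 1.76) of the miR394 5p reads in ‘Ant’ and 0.306% (0.223 to 0.42) in ‘Mix’.

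Reads listed for the miR394 3p arm were few in both libraries, with 14 in ‘Ant’ and 14 in ‘Mix’. Of these, 13 in ‘Ant’ and 7 in ‘Mix’ belong to the 2 sequences of the partner strand of the guide, and the rest to a sequence next to it. The sequence ath-miR394b-3p_R+1, which stood in the A02 and plus-strand A07 hairpins, had 5 ‘Ant’ reads against 7 ‘Mix’ reads (log2 -0.53, interval -2.53 to 1.34). The sequence bna-MIR394b-p3, found only in the minus-strand A07 hairpin, had 8 reads in ‘Ant’ against 0 in ‘Mix’. Against the floor of 3 reads in that library it was at least 2.58-fold higher in ‘Ant’ (log2 1.37). This is a bound against the floor and not for counting error, for which the lower limit of the log2 value was 0.73, within 2-fold. The sequence aly-MIR394b-p3 had 1 ‘Ant’ read against 7 ‘Mix’ reads, a ratio of 0.138 with an interval of -8.35 to 0.11 on the log2 scale (-1.27 with the floor of 3 reads, so it counts among the 5 lower ones). Its letters correspond to bases 120 to 139 of the A02 hairpin, next to the 3p strand and not within it, with the difference C13T from the precursor. The partner strand alone gave a log2 value of 0.85 (interval -0.58 to 2.41). At this depth no difference was detectable in the partner strand or in the 3p arm as listed.

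For miR396, the guide of the A08 hairpin was the most read sequence in both libraries. The sequence bra-miR396-5p had 21772 reads in ‘Ant’ against 9632 in ‘Mix’, which is 21429 normalized ‘Ant’ reads and 9786 normalized ‘Mix’ reads. It was 2.19-fold higher in ‘Ant’ (log2 1.13, interval 1.10 to 1.17) and ranked 12 among all sequences in ‘Ant’ and 26 in ‘Mix’. The difference stood just past 2-fold. It was 0.93 on the log2 scale with TMM scaling and 0.85 with median-of-ratios scaling, so the call depends on the scaling. Its partner bra-miR396-3p had 2594 ‘Ant’ reads against 1944 ‘Mix’ reads (log2 0.37, interval 0.28 to 0.46), within 2-fold.

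The guide of the A09 hairpin, ath-miR396a-5p, had 1660.5 reads in ‘Ant’ against 9203 in ‘Mix’, which is 1634 normalized ‘Ant’ reads and 9350.3 normalized ‘Mix’ reads. It was 5.72-fold higher in ‘Mix’ (log2 -2.52, interval -2.59 to -2.44). Its rank was 70 in ‘Ant’ and 27 in ‘Mix’, next to that of the A08 guide there. Its partner ath-miR396a-3p had 1440 ‘Ant’ reads against 6701 ‘Mix’ reads and was 4.80-fold higher in ‘Mix’ (log2 -2.26, interval -2.35 to -2.18). Both strands of the A09 hairpin were thus lower in ‘Ant’, and neither strand of the A08 hairpin was. The table's notes do not say how its fractional reads arose. A guide read that lacks its last base matches both hairpins, and how such reads were assigned is not given in the sources used here.

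The remaining 4 miR396 sequences had few reads. The sequence aly-miR396b-3p_L-1R+1 is bra-miR396-3p moved by 1 base, with A21T against its precursor, and had 16.5 reads in ‘Ant’ against 24 in ‘Mix’ (log2 -0.59, interval -1.64 to 0.34). The sequence csi-miR396a-5p_R+1_1ss20TA, which carries T20A and has no genome position, had 4 ‘Ant’ reads against 10 ‘Mix’ reads (log2 -1.37, interval -3.49 to 0.43), which counts among the 5 lower ones. The sequence cca-miR396a-3p had 5.5 reads in ‘Ant’ against 1 in ‘Mix’, a ratio of 5.30 with an interval of -0.50 to 8.06 on the log2 scale (0.83 with the floor of 3 reads, so it counts as within 2-fold). It differed from bra-miR396-3p by C2T, and from its own listed precursor by A18G. That precursor lies at A08:8216813-8216962 on the plus strand and is the exact reverse complement of a stretch of the bra-MIR396 hairpin. The sequence csi-miR396a-3p_L-1R+2_1ss17GA, which carries G17A and has no genome position, had 0 ‘Ant’ reads against 1 ‘Mix’ read, so no ratio is given. For the 3 that have a ratio, the interval includes a log2 value of 0.

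**Figure D2:**
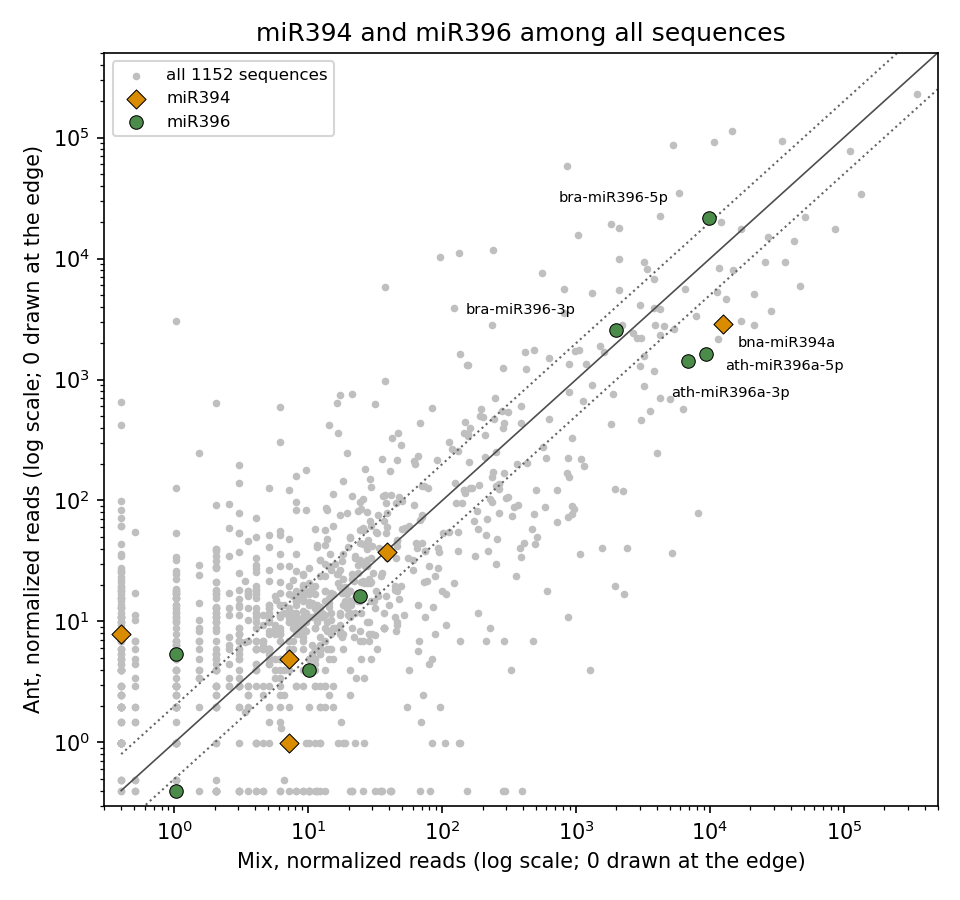
Normalized reads in ‘Ant’ (vertical, log scale) against ‘Mix’ (horizontal, log scale) for all 1152 sequences, with miR394 as diamonds and miR396 as circles. The solid line marks equal values and the dotted lines a 2-fold difference; bra-miR396-5p lies just above the upper line, and bna-miR394a and both ath-miR396a sequences lie below the lower one.

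Summed by family and arm, miR394 was lower in ‘Ant’, whereas miR396 was nearly level in total and lower in its 3p arm. The miR394 5p arm had 2954 reads in ‘Ant’ against 12414 in ‘Mix’ and was 4.34-fold higher in ‘Mix’ (log2 -2.12, interval -2.18 to -2.06). The miR394 3p arm as listed gave a log2 value of -0.05 (interval -1.22 to 1.13), and its sign turned without aly-MIR394b-p3 (0.85). All miR396 reads came to 27492.5 in ‘Ant’ and 27516 in ‘Mix’, which is 2.04% of the listed reads in ‘Ant’ and 1.97% in ‘Mix’ (log2 -0.05, interval -0.07 to -0.02). The guides of the A08 and A09 hairpins, which make up most of this sum, differed in opposite directions. The miR396 5p arm had 23436.5 ‘Ant’ reads against 18845 ‘Mix’ reads (log2 0.27, interval 0.24 to 0.30). The miR396 3p arm had 4056 reads in ‘Ant’ against 8671 in ‘Mix’ and was 2.21-fold higher in ‘Mix’ (log2 -1.14, interval -1.20 to -1.09). The sign of the miR396 total turned to 0.05 when libraries were scaled by listed reads. That of the miR396 5p arm turned to -0.0074 with median-of-ratios scaling and to -0.21 when each record was counted. Neither sum differed by more than 2-fold under any of these settings. Both families together held 2.26% of the listed reads in ‘Ant’ and 2.87% in ‘Mix’.

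The make-up of the miR396 pool differed between the libraries, and shares within a library need no scaling. The strands of the A08 hairpin made up 88.6% (Wilson interval 88.2 to 89.0) of miR396 reads in ‘Ant’ and 42.1% (41.5 to 42.7) in ‘Mix’. Those of the A09 hairpin made up 11.3% (10.9 to 11.7) in ‘Ant’ and 57.8% (57.2 to 58.4) in ‘Mix’. The genome was not searched for other copies of these strands. Shares and arm ratios by hairpin are thus those of its listed strands and not necessarily of a single locus. Within the 5p arm, bra-miR396-5p took 92.9% (92.6 to 93.2) in ‘Ant’ and 51.1% (50.4 to 51.8) in ‘Mix’. The guide ath-miR396a-5p took 7.09% (6.76 to 7.42) in ‘Ant’ and 48.8% (48.1 to 49.5) in ‘Mix’. The anther pool of guides was thus mostly the form ending in T, and the vegetative pool was close to an even mixture of both forms. The odds of the A08 form were 12.5 times higher in ‘Ant’, a log2 odds ratio of 3.65 (interval 3.56 to 3.73). Within the 3p arm, bra-miR396-3p took 64.0% (62.5 to 65.4) in ‘Ant’ and 22.4% (21.6 to 23.3) in ‘Mix’, a log2 odds ratio of 2.62 (interval 2.50 to 2.74). The partner ath-miR396a-3p took 35.5% (34.0 to 37.0) in ‘Ant’ and 77.3% (76.4 to 78.2) in ‘Mix’. In both arms the A08 sequence took a larger share in ‘Ant’ than in ‘Mix’.

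**Figure D3:**
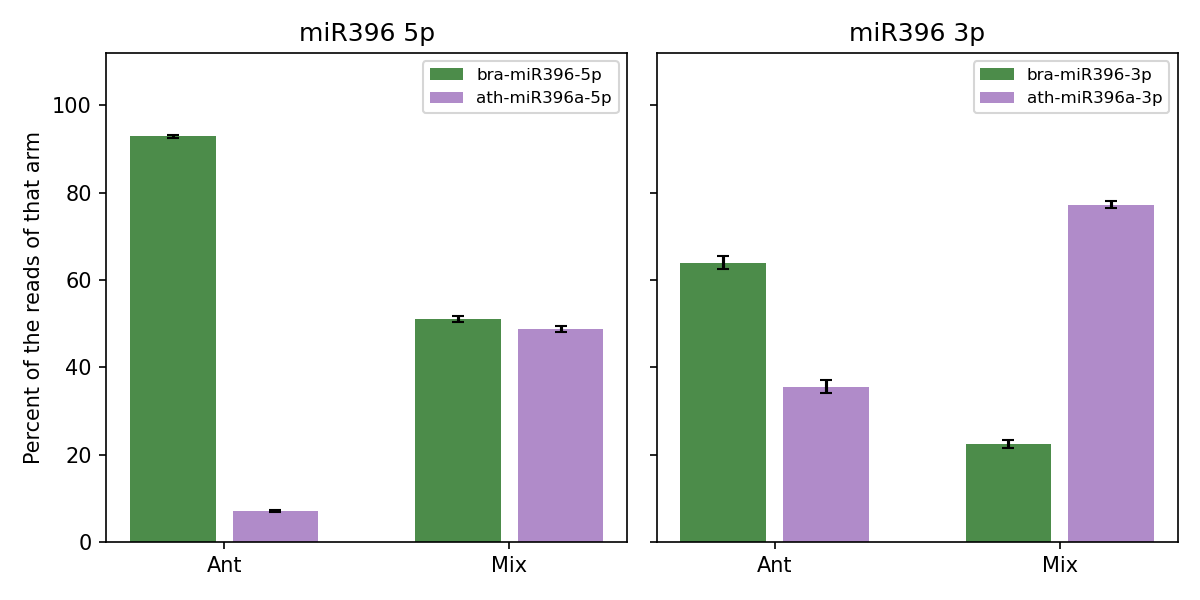
Share of the reads of the miR396 5p arm (left panel) and 3p arm (right panel) held by the sequences of the A08 hairpin (bra) and the A09 hairpin (ath), in percent, for ‘Ant’ and ‘Mix’ (1 library each). Bars start at 0 and error bars are Wilson 95% intervals for counting error; bra-miR396-5p holds 92.9% in ‘Ant’ and 51.1% in ‘Mix’.

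How common such a split is was asked of all pairs of sequences of equal length that differ at 1 base and have at least 100 reads in a library. This comparison was chosen after the values had been seen. There were 32 such pairs, and in 4 of them (12.5%) the members differed in opposite directions, each by over 2-fold. The pair of bra-miR396-5p and ath-miR396a-5p was 1 of these 4, with a gap of 3.65 on the log2 scale. With TMM or median-of-ratios scaling the count was 3, and this pair was not among them, since bra-miR396-5p then lay within 2-fold. Its gap ranked 9 among the 32, whose median was 1.39. The miR396 guides therefore stood among the wider pairs without being the widest. Some sequences stood in more than 1 pair, such as bna-MIR172c-p5, so the 32 pairs are not independent. This limits the share and the rank given here.

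The ratio of 5p to 3p reads describes how far the guide outnumbers its partner within a library. In the A08 hairpin it was 8.39 (exact interval 8.06 to 8.75) in ‘Ant’ and 4.95 (4.72 to 5.20) in ‘Mix’, a log2 difference of 0.76 (interval 0.67 to 0.85). In the A09 hairpin it was 1.15 (1.07 to 1.24) in ‘Ant’ and 1.37 (1.33 to 1.42) in ‘Mix’, a log2 difference of -0.25 (interval -0.36 to -0.14). The 3p strand of the A09 hairpin was thus below its guide in both libraries. It had 1440 reads against 1660.5 in ‘Ant’ and 6701 against 9203 in ‘Mix’. Arm ratios used reads without the floor. Hairpins were compared where both arms had reads in each library, and each arm was taken as its sequence most read in ‘Ant’. Among 68 hairpins with at least 100 reads of each arm in a library, the ratio differed between ‘Ant’ and ‘Mix’ by over 2-fold in 42 (61.8%). The median absolute log2 difference was 1.45. Some of these hairpins share a mature strand, such as bra-miR156a-5p, whose reads cannot be split among its loci. Their ratios are therefore neither independent nor those of a single locus, which limits this background and the ranks within it. Neither MIR396 hairpin was among these 42. Only 18 of the 68 had a smaller difference than the A08 hairpin, and 7 had a smaller one than the A09 hairpin. Over the whole miR396 family the ratio was 5.78 (5.59 to 5.98) in ‘Ant’ and 2.17 (2.12 to 2.23) in ‘Mix’, a log2 difference of 1.41 (interval 1.35 to 1.47). That family value mixes hairpins of unlike ratio and unlike share. For miR394 with its 3p arm as listed the ratio was 211 (126 to 386) in ‘Ant’ and 887 (528 to 1622) in ‘Mix’, a log2 difference of -2.07 (interval -3.14 to -1.0) that rests on 14 reads of the 3p arm in each library. Over the partner strand alone, with 13 ‘Ant’ reads and 7 ‘Mix’ reads, the ratio was 227 (133 to 427) in ‘Ant’ and 1773 (860.5 to 4412) in ‘Mix’, a log2 difference of -2.96 (interval -4.29 to -1.64).

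**Figure D4:**
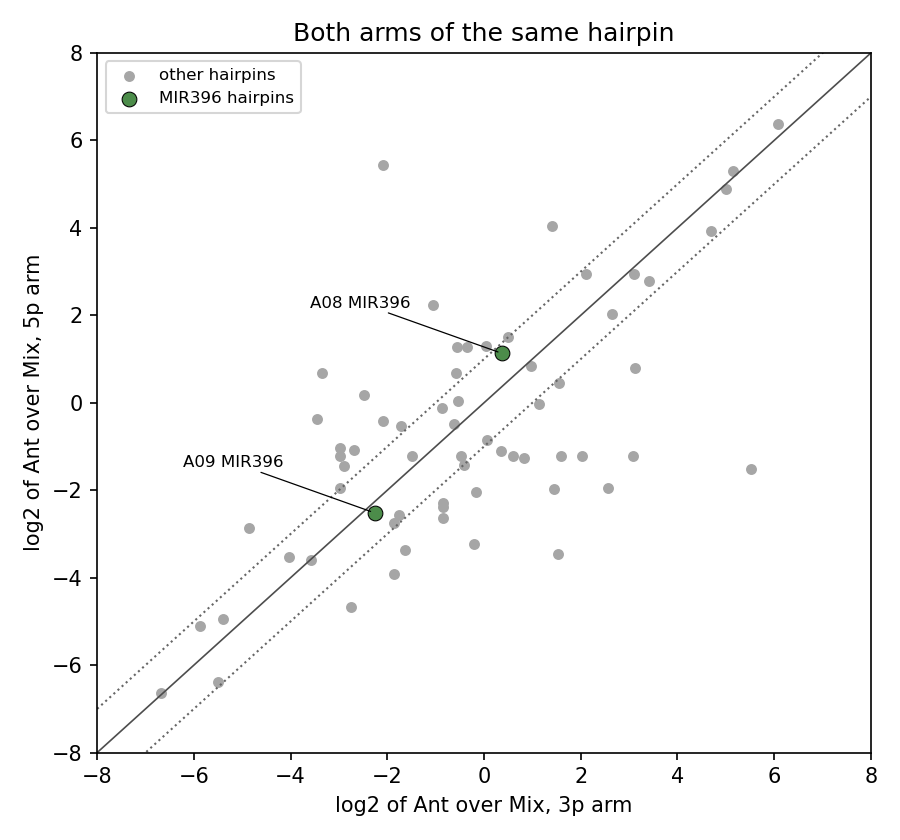
The log2 value of ‘Ant’ over ‘Mix’ of the 5p arm (vertical) against that of the 3p arm (horizontal) for 68 hairpins, 1 point each. The hairpins of ath-miR156h_L+1 (3p value 9.97) and bna-miR167d_R+1 (3p value -8.33) lie outside the axes and are not drawn. Some hairpins share a mature strand and so a value on 1 axis. Axis values use the floor for low reads, so the gap between arms can differ from the ratio difference in the text. The solid line marks equal values and the dotted lines a 2-fold difference between arms; both MIR396 hairpins lie between the dotted lines, A08 at 1.13 and 0.37 and A09 at -2.52 and -2.26.

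The guide arms of 12 other conserved families were set beside these values. Their textbook targets are transcription factors, F-box proteins or TAS3, and the list was chosen with earlier results of these data known. Of the guide-arm sums, 4 were higher in ‘Ant’ by over 2-fold, 4 were lower and 4 lay within 2-fold. The highest was miR393, which represses the auxin receptor genes TIR1 and AFB, with 7964 ‘Ant’ reads against 576.7 ‘Mix’ reads (log2 3.74). The lowest was miR159, which represses GAMYB-like transcription factor genes, with 6090 reads in ‘Ant’ against 46450.3 in ‘Mix’ (log2 -2.98). The miR394 guide arm, at -2.12, lay between miR165 with miR166 at -1.69, which represses class III HD-ZIP genes, and miR160 at -2.84, which represses auxin response factor genes. The miR396 guide arm, at 0.27, lay between miR169 at 0.99, which represses NF-YA genes, and miR172 at 0.05, which represses AP2-like genes. The other sums were 2.24 for miR167, 1.62 for miR156 with miR157, 1.49 for miR170 with miR171, -0.65 for miR319, -0.84 for miR390 and -1.58 for miR164. Across the 195 sequences of these families, 50 (25.6%) were higher by over 2-fold and 74 (37.9%) were lower. Over all 1152 sequences the shares were 29.6% higher and 22.1% lower.

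**Figure D5:**
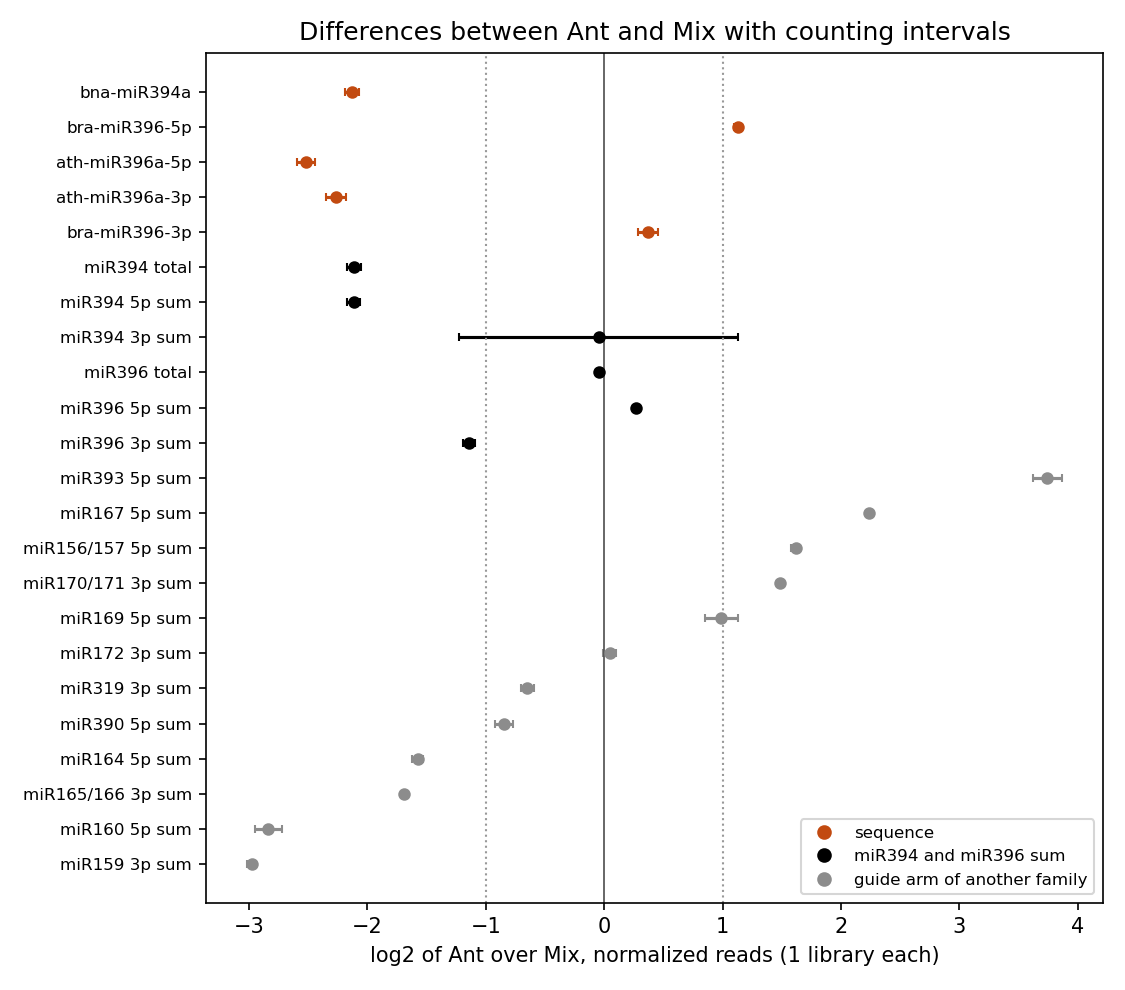
Log2 of ‘Ant’ over ‘Mix’ in normalized reads (1 library each) for the 5 sequences with at least 100 reads, the sums of miR394 and miR396, and the guide arms of 12 other families. Error bars are exact 95% counting intervals, dotted lines mark 2-fold; miR394 5p lies at -2.12, the miR396 total at -0.05 and the miR396 3p arm at -1.14.

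The sequences of other families with at least 1000 reads in a library and the nearest log2 value were looked up for each abundant member, among 96 candidates. With 1 value per sequence from 2 libraries, this likeness is a description. Nearest to bna-miR394a were bna-miR172b, with 431.7 ‘Ant’ reads against 1782 ‘Mix’ reads (log2 -2.09), and bra-miR398-5p_1ss8CT, with 5148 and 21068 in ‘Ant’ and ‘Mix’ (log2 -2.08). Nearest to bra-miR396-5p were ath-miR393b-3p_1ss14TA (log2 1.27) and bna-miR156b (log2 1.29). Nearest to bra-miR396-3p were bra-miR1140 (log2 0.35) and bra-miR161-5p (log2 0.46). Nearest to ath-miR396a-5p were bra-miR162-3p, with 3084.5 reads in ‘Ant’ against 16658 in ‘Mix’ (log2 -2.48), and bra-MIR5714-p5 (log2 -2.58). Nearest to ath-miR396a-3p were bna-miR166f, with 17946 ‘Ant’ reads against 84451 ‘Mix’ reads (log2 -2.28), and bna-MIR166a-p5 (log2 -2.30).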

How the data were processed

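Small RNA of ‘Ant’ and ‘Mix’ was sequenced in 1 library each with the TruSeq Small RNA kit. The labels give about 5 µg of total RNA as input and the study's methods another amount. The authors cleaned the reads of adapter products, repeats of simple sequence and other noncoding RNA classes and searched what was left, 18 to 25 nt in length, against the hairpins of miRBase 21. For the small RNA reads, the aligner and genome build are not given in the sources used here; those in the study's methods are for its longer RNA. The deposited reads are estimated counts, some with fractions, and per the file headers they are the reads of an isoform at the 5′ or 3′ end. The deposited normalized signal equals the reads times 1 factor per library, set by the authors. The GC content of precursors is a deposited percent, and folding energy and its index are deposited scores.

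Each distinct sequence was counted once, since records of the same sequence carry the same reads. Reads below 3 were set to 3 before ‘Ant’ was divided by ‘Mix’, but not in arm ratios, shares or intervals. Ratios carry exact Clopper-Pearson 95% intervals with reads rounded, shares carry Wilson intervals, and differences of ratios or odds carry Wald intervals. No p-value is given, since a test on the reads of 2 libraries compares those libraries and not the conditions. The group of each library came from its title. Every sequence of both families is named; those with at least 100 reads in a library have full values. For each with at least 1000 reads, the 2 nearest sequences of other families were named, leaving out names that start with PC. Other families are named by sum. The members and lists were chosen with earlier results of these data known. Alternatives were other scalings (TMM from edgeR 4.0.16 in R 4.3.3, median of ratios, valid or listed reads), a pseudocount of 1, other read minimums, a 4-fold threshold, the study's fold and p rule (p at most 0.05), and counting names or records; 1 sequence next to the miR394 3p strand was left out as a later alternative. The fold and p rule was run here on distinct sequences, with Fisher's exact and chi-square tests on the reads both required. Its fold used the floor of 3 reads. Its counts are therefore not the calls that the study reported. The code (Python 3.11.15, numpy 2.4.6, pandas 2.3.3, scipy 1.17.1, matplotlib 3.10.9) was tested on simulated data. Gene names came from RefSeq.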

Additional observations from a re-analysis of the deposited data

How the results depend on the processing

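With 1 library per group, no library could be left out. No paired analysis was possible because each group has 1 library. No value past 2-fold changed its direction under any alternative run. Of 65 alternative values of single sequences, 47 stayed within the main counting interval and 18 moved out of it; of 98 alternative values of counts, sums, ratios and shares, 67 stayed and 31 moved. All moves of sequences came from the scaling, which shifts every log2 value of a setting by the same amount: by -0.08 with valid reads, 0.10 with listed reads, -0.21 with TMM and -0.28 with the median of ratios. In that order of scalings, the miR394 total was -2.19, -2.02, -2.32 and -2.39, and so was the miR394 5p arm (-2.19, -2.02, -2.32 and -2.39). The miR396 3p arm was -1.22, -1.05, -1.35 and -1.42, the miR396 5p arm 0.19, 0.36, 0.063 and -0.0074, and the miR396 total -0.12, 0.048, -0.25 and -0.32. With each record counted, which counts ath-miR396a-5p at both listed positions, the miR396 5p arm was -0.21 and the miR396 total -0.38. The number of members higher in ‘Ant’ by over 2-fold was 1 with TMM and 1 with the median of ratios, since bra-miR396-5p fell below 2-fold, while 5 were lower under each; over all sequences 297 and 287 were higher and 282 and 297 lower. With a pseudocount of 1, 3 members were higher and 6 lower, as cca-miR396a-3p (1.67) and csi-miR396a-3p_L-1R+2_1ss17GA (-1.01) passed 2-fold, against 34.2% higher and 26.2% lower over all sequences. Above 4-fold, 0 members were higher and 3 were lower, against 187 (16.2%) higher and 139 (12.1%) lower over all sequences. Under the study's fold and p rule 2 members were higher and 3 lower, against 306 (26.6%) higher and 222 (19.3%) lower over all sequences. Over all sequences, 109 were higher and 120 lower by over 2-fold with at least 10 reads in both libraries. Leaving out aly-MIR394b-p3, and the count of 1-base pairs under other scalings, were chosen after seeing the data. The arm ratios within a hairpin and the odds of the A08 forms need no scaling. Their only alternatives were rounding of reads and, for the odds, leaving out sequences without a genome position. These hardly change values that rest on so many reads, so that they stayed within their intervals says little about robustness. Depth limits the 8 sequences with at most 38 reads, whose intervals span more than 2-fold. The spread between plants or libraries is not known.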
